A study of Mus musculus with 8 samples.

Results

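The genes described here are 9 that haematopoietic stem cells are recognised by: the surface proteins Kit, Ly6a, Procr, Cd34, Slamf1 and Tek, and 3 further genes read as stem cell identity genes, Trpc6, Sult1a1 and Abcg3. They were chosen by name, with earlier results of these data known, and 8 of the 9 were measured among the 12393 genes of the array. Ly6a, which encodes Sca-1, was not analysed here. Sca-1 and the protein of Kit were also used to sort every sample.

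The study compared 3 kinds of sorted mouse bone marrow cells. LSK cells, which carry Sca-1 and Kit but no lineage markers, came from C57/BL6 mice aged 12 weeks and are titled WT HSC in the labels. Leukaemia-initiating cells (LICs) were the GFP+ cells of the same LSK surface type, taken 14 days after bone marrow transplantation in a retroviral model of chronic myeloid leukaemia (CML). They were either wild type (WT) or lacked Ezh2, the methyltransferase of Polycomb repressive complex 2 (Ezh2 KO), and their labels also give the strain as C57/BL6 and the age as 12 weeks. RNA from 3 LSK samples, 3 WT LIC samples and 2 Ezh2 KO LIC samples, labelled as biological repeats, was hybridised to 1 array each. The sources used here do not give how Ezh2 was deleted, which oncogene the virus carried, the animals' sex or whether animals were pooled. LICs were transplanted and infected and LSK cells are not said to have been, so leukaemia, transplantation and infection cannot be told apart in the comparisons with LSK cells. Nor can hybridisation batch and group be told apart, since no batch is given.

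Haematopoietic stem cells sit within the LSK population together with multipotent progenitors. Kit is the receptor tyrosine kinase for stem cell factor, and Tek (Tie2) is the receptor tyrosine kinase for angiopoietins. Procr (endothelial protein C receptor) binds protein C on endothelium and marks stem cells in mouse marrow. Slamf1 (CD150) is a self-binding receptor of the SLAM family, and CD150 without CD48 is a usual surface definition of mouse stem cells. Cd34 is a sialomucin, low or absent on the most dormant stem cells of adult mice and present on progenitors. Trpc6 is a cation channel opened by diacylglycerol, Sult1a1 is a cytosolic enzyme that sulfates phenols, and Abcg3 is a rodent transporter-family protein related to Abcg2, the dye-efflux pump of stem cells.

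RefSeq gave an upstream window for 8 of the 9 genes, with none for Ly6a. The 250 bases before the annotated start are printed for Kit, Trpc6, Sult1a1 and Abcg3, the 4 genes that were lower in WT LICs than in LSK cells by the test described below. They read 5′ to 3′ towards the gene in assembly GRCm38.p6, and capitals mark AGGAAG or its reverse complement, a core of ETS factor sites.
Kit: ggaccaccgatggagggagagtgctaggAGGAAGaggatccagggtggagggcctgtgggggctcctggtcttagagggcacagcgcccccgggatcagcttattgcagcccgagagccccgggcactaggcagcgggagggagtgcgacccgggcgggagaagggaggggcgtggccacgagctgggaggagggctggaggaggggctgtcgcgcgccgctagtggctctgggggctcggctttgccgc
Trpc6: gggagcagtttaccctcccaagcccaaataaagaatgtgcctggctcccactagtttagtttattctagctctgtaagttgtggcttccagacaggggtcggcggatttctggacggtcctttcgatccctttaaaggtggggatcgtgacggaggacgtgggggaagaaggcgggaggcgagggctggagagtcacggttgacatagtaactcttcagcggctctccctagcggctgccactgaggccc
Sult1a1: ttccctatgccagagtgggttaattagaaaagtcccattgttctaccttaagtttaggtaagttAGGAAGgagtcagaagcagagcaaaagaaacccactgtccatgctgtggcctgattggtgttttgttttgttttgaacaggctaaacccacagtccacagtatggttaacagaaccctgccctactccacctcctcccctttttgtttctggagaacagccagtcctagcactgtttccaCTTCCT
Abcg3: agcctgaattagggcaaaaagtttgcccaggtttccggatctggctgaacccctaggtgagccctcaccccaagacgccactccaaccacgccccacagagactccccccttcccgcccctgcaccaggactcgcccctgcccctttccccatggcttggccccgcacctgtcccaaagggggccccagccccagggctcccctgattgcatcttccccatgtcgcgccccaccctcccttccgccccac
These windows are chr5:75574737-75574986 on the plus strand for Kit, chr9:8543892-8544141 on the plus strand for Trpc6, chr7:126676419-126676668 on the minus strand for Sult1a1 and chr5:104982718-104982967 on the minus strand for Abcg3. Their GC content was 70.8%, 56.4%, 45.6% and 66.4% in that order, against a median of 52.4% over all such windows. The ETS letters lay 222 bases before the start of Kit and 186 and 6 bases before that of Sult1a1. They were absent from the windows of Trpc6 and Abcg3.

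Over the 8 members with a window, 5 motifs were searched on both strands, each motif separately. The ETS letters AGGAAG were in 4 of the 8 windows (Kit, Cd34, Slamf1 and Sult1a1) and in 29.5% of 32851 mouse windows of the same length. The E-box CANNTG was in 4 (Procr, Slamf1, Tek and Abcg3), against 66.2% of all. The letters AGATAA, bound by GATA factors, were in none of the 8 and in 9.99% of all windows. The same held for TGTGGT, bound by RUNX factors (14.0% of all), and TTCNNNGAA, bound by STAT factors (7.02%). The 4 genes printed above thus shared none of the 5 motifs in these windows.

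Values are log2 of the deposited intensities, given as mean ± SD over the arrays of a group, and they are compared between groups for 1 gene at a time, never between genes. Groups were compared in limma with 2-sided moderated tests, and a gene was called where its Benjamini-Hochberg adjusted p over all 12393 genes was under 0.05. The brightest of the bacterial control probe sets averaged 4.01, which serves here as background level. Precision is limited by how few arrays there were. Over all genes the median standard error was 0.21 for WT LICs against LSK cells and 0.23 for the comparisons with the 2 Ezh2 KO LIC arrays. In bulk samples such as these, fewer cells of a type and less RNA per cell cannot be told apart.

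The deleted gene matched the labels: Ezh2 was 10.93 ± 0.15 (SD, n = 3) in LSK cells, 11.34 ± 0.09 (n = 3) in WT LICs and 9.24 ± 0.43 (n = 2) in Ezh2 KO LICs. The Y-linked Eif2s3y was at 1.29 to 1.63 in LSK cells and 9.21 to 9.80 in all 5 LIC arrays. Sex of the cells and group therefore cannot be told apart in the comparisons with LSK cells. Xist was 12.45 to 12.69 in LSK cells and 10.68 to 11.18 in LICs, except for WT LIC replicate 3 at 4.35, so that array stood apart from its group. The other LIC arrays thus carried both Xist and Eif2s3y, and sex-linked transcripts also differed within the WT LICs. Summed intensities of 8 antibody-secreting cell markers ran from 6620 to 10000 in LSK cells, 1360 to 1740 in WT LICs and 1640 to 2330 in Ezh2 KO LICs. Those of 9 megakaryocyte markers ran from 1780 to 2820, 358 to 684 and 469 to 542 in the same order. In WT LICs against LSK cells, Jchain and Ighm alone of the first set were called lower, and Xbp1 was higher by 0.43, uncalled. Of the second set Pf4, Gp9, Treml1 and Cavin2 were called lower, Itga2b differed by 0.05 and Itgb3 was under background on every array. The sums of 11 B cell markers ran from 920 to 1390 in LSK cells, 481 to 934 in WT LICs and 5680 to 8970 in Ezh2 KO LICs. In Ezh2 KO against WT LICs 6 of the 11 were called higher, as were 0.589% of all genes. Of 9 lineage markers used in such gates none was called in any comparison. Over all genes 3.42% were called in WT LICs against LSK cells, 0.637% between the LICs and 3.47% in Ezh2 KO LICs against LSK cells. Cd3g and Itgam stayed at or under background on every array. Il7r averaged 7.74 in LSK cells, 3.85 in WT LICs, under background, and 7.02 in Ezh2 KO LICs. It differed by -3.90 in WT LICs from LSK cells (adjusted p = 0.0557) and by 3.17 between the LICs (0.280). Cd5 differed by 1.24 in WT LICs from LSK cells (adjusted p = 0.282). The summed lineage markers ran from 1890 to 2680 in LSK cells, 1130 to 1660 in WT LICs and 1540 to 1680 in Ezh2 KO LICs. The sums of 10 monocyte and macrophage markers ran from 6870 to 8030 in LSK cells, 1720 to 4470 in WT LICs and 2740 to 3270 in Ezh2 KO LICs. Those of 9 mast cell and basophil markers ran from 4060 to 4540, 5970 to 15600 and 4220 to 5300 in the same order. In WT LICs against LSK cells, Lyz2 and F13a1 were called lower, while Cx3cr1 and Ccr2 were higher, uncalled. Cpa3 was called higher, while Gata2 and Mitf were lower, uncalled. The part of these differences in the results on the stem cell genes was not tested.

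Against LSK cells, all 8 differences of the stem cell genes in WT LICs were below 0, by very different amounts. Kit, Trpc6, Sult1a1 and Abcg3 fell, while Procr, Tek, Cd34 and Slamf1 did not pass the test. These 4 of 8 compare with 2.15% of all genes that fell and 3.42% that changed in either direction. The genes were chosen with earlier results of these data known, so contrasts of the set with all genes describe it and are no test. For 6 of 8 members every WT LIC array lay below every LSK array, as it did for 13.2% of all genes, and the median difference was -2.63 over the members against 0.02 over all genes.

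Among the receptors, Kit measured 11.05, 10.90 and 10.92 in LSK replicates 1 to 3, 9.79, 9.81 and 9.69 in the WT LIC replicates and 9.99 and 10.35 in the Ezh2 KO LIC replicates. Replicates lay close together, and LSK cells, Ezh2 KO LICs and WT LICs followed each other downwards without overlap. Kit fell by 1.19 in WT LICs on the log2 scale (SE 0.14, adjusted p = 0.00886), which is 2.28-fold, from 10.95 ± 0.08 (SD, n = 3) to 9.77 ± 0.06 (n = 3). The samples of all 3 groups had been sorted as Kit+ cells. Less Kit RNA per cell and a different mix of cells among those sorted cannot be told apart here.

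Kit was 0.40 higher in Ezh2 KO than in WT LICs (95% interval 0.03 to 0.78), at 10.17 ± 0.26 (n = 2), which did not pass the test over all genes (adjusted p = 0.412). Against LSK cells Ezh2 KO LICs were 0.78 lower (1.72-fold, adjusted p = 0.0455), a call close to the threshold. It was lost in 11 of 20 alternatives, where the adjusted p reached 0.201. Leaving out LSK replicate 1, 2 or 3 gave 0.113, 0.0912 and 0.106, leaving out WT LIC replicate 1 or 2 gave 0.0744 and 0.0802, and leaving out Ezh2 KO LIC replicate 1 or 2 gave 0.201 and 0.0824. The fall in WT LICs was called in all 20.

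Tek was 8.63, 9.84 and 8.86 in LSK cells, 7.14, 4.89 and 4.64 in WT LICs and 4.42 and 6.30 in Ezh2 KO LICs. All LIC arrays lay below all LSK arrays, but the LIC arrays spread widely and the 2 LIC groups overlapped. The difference from LSK cells was -3.55 in WT LICs (95% interval -5.34 to -1.77, 11.7-fold) and -3.75 in Ezh2 KO LICs (-5.75 to -1.75, 13.4-fold). Adjusted p-values were 0.0528 and 0.0606, so neither was called. The first passed the test in 6 of 20 alternatives and the second in 3, among them the fit without WT LIC replicate 1, the highest LIC array, which gave -4.35 (adjusted p = 0.0345) and -3.75 (0.0414). The 2 kinds of LIC differed by -0.20 (95% interval -2.19 to 1.80).

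Procr was 7.93, 9.03 and 8.93 in LSK cells, 6.95, 7.47 and 6.35 in WT LICs and 7.71 and 8.71 in Ezh2 KO LICs. WT LIC arrays were the lowest and did not overlap with either of the other groups, while Ezh2 KO LICs lay within the LSK range apart from replicate 1, just below it. The differences were -1.71 for WT LICs against LSK cells (95% interval -2.70 to -0.72, adjusted p = 0.0758) and 1.29 for Ezh2 KO against WT LICs (0.18 to 2.40, adjusted p = 0.383). Ezh2 KO LICs and LSK cells differed by -0.42 (-1.53 to 0.69). None of the 3 was called, and the first was called in none of 20 alternatives. The array's probe set for Procr is of a kind that can share probes with other transcripts.

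Slamf1 was 7.50, 9.17 and 7.55 in LSK cells, 7.88, 8.44 and 6.02 in WT LICs and 6.86 and 7.34 in Ezh2 KO LICs. WT LICs overlapped the LSK range and reached below it, and Ezh2 KO LICs lay just under the lowest LSK array. Differences were -0.63 for WT LICs against LSK cells (95% interval -2.23 to 0.98), -0.35 between Ezh2 KO and WT LICs (-2.14 to 1.45) and -0.98 for Ezh2 KO LICs against LSK cells (-2.77 to 0.82). Adjusted p-values ran from 0.552 to 0.902. The first difference changed sign to 0.08 without WT LIC replicate 3.

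Cd34, the sialomucin, was bright on every array, at 12.25, 12.22 and 12.31 in LSK cells, 11.62, 11.96 and 12.23 in WT LICs and 11.97 and 12.18 in Ezh2 KO LICs. WT LIC replicate 1 was the lowest and WT LIC replicate 3 lay inside the LSK range, so those groups overlapped. WT LICs differed from LSK cells by -0.32 (95% interval -0.74 to 0.10), Ezh2 KO from WT LICs by 0.14 (-0.33 to 0.60) and Ezh2 KO LICs from LSK cells by -0.19 (-0.65 to 0.28), with adjusted p between 0.366 and 0.840. These intervals were the narrowest after those of Kit.

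The plot of member intensities by array sets these values side by side.

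**Figure D1:**
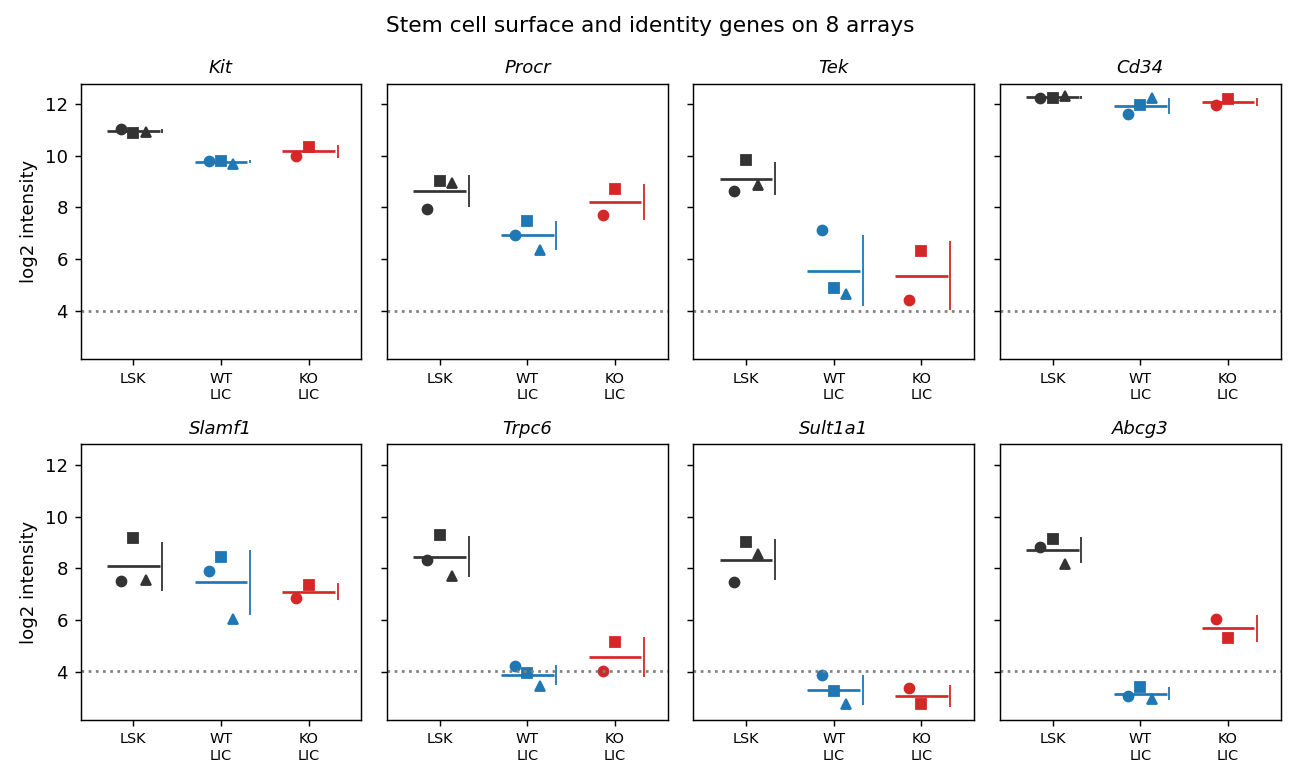
Log2 intensity of the 8 measured stem cell genes on each of 8 arrays, by group (LSK, WT LIC, Ezh2 KO LIC). Symbols mark replicates 1 (circle), 2 (square) and 3 (triangle), bars the group mean, thin lines ± 1 SD, and the dotted line the background level of 4.01; Trpc6, Sult1a1 and Abcg3 drop to or near that line in WT LICs, Kit and Procr are lowest in WT LICs, and Cd34 and Slamf1 overlap between LSK cells and WT LICs.

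The 3 identity genes were at or near background in WT LICs. Trpc6, the channel, was 8.34, 9.29 and 7.70 in LSK cells, 4.22, 3.95 and 3.46 in WT LICs and 4.02 and 5.13 in Ezh2 KO LICs. The lowest LSK array stood 2.57 above the highest LIC array. Trpc6 was at least 20.5-fold lower in WT LICs (log2 difference -4.57, SE 0.46, adjusted p = 0.00398), a lower bound since the WT LIC mean of 3.87 lay under background. The bound sets the LSK mean against the higher of 4.01 and the measured value on each WT LIC array.

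In Ezh2 KO LICs Trpc6 was 14.6-fold lower than in LSK cells (log2 difference -3.87, adjusted p = 0.0133), a call lost without Ezh2 KO LIC replicate 1 (-3.31, adjusted p = 0.0712). The 2 LIC groups overlapped and were not called apart (adjusted p = 0.649). The log2 difference of Ezh2 KO from WT LICs was 0.70 (95% interval -0.49 to 1.89), so its direction was not settled. Ezh2 KO LIC replicate 1 (4.02) lay below WT LIC replicate 1 (4.22). With the WT LIC mean under background, no fold is given between the LICs.

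Sult1a1, the phenol sulfotransferase, was 7.46, 8.999 and 8.55 in LSK cells, 3.88, 3.25 and 2.74 in WT LICs and 3.37 and 2.75 in Ezh2 KO LICs. All 5 LIC arrays were under background, and the 2 LIC groups overlapped there. Sult1a1 was at least 20.0-fold lower in both kinds of LIC than in LSK cells, with log2 differences of -5.05 (adjusted p = 0.00261) in WT and -5.28 (adjusted p = 0.00405) in Ezh2 KO LICs. Both calls stood in all 20 alternatives. Both LIC groups were under background, so no fold is given between them. The summed antibody-secreting cell markers given above were also higher in LSK cells than in either LIC group.

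Abcg3, the transporter-family gene, was 8.84, 9.12 and 8.16 in LSK cells, 3.07, 3.42 and 2.95 in WT LICs and 6.04 and 5.31 in Ezh2 KO LICs. The 3 groups were fully separate, with Ezh2 KO LICs between the other two. Abcg3 fell at least 25.9-fold in WT LICs (log2 difference -5.56, SE 0.30, adjusted p = 0.000263) and 8.15-fold in Ezh2 KO LICs (-3.03, SE 0.34, adjusted p = 0.00762). Both calls stood in all 20 alternatives.

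Abcg3 was the 1 stem cell gene called between Ezh2 KO and WT LICs, and was higher there by at least 3.18-fold (log2 difference 2.53, SE 0.34, 95% interval 1.75 to 3.32, adjusted p = 0.0261). This 1 of 8 compares with 0.637% of all genes called in either direction in that comparison, and 0.589% called higher. The call did not stand in 8 of 20 alternatives, where the difference was 1.44 to 2.90 and the adjusted p at most 0.124. Among these were the fits without LSK replicate 1 (adjusted p = 0.0504), WT LIC replicate 1 (0.0983) or 2 (0.0663), and Ezh2 KO LIC replicate 1 (0.102) or 2 (0.0581). The B cell markers given above were also higher in Ezh2 KO than in WT LICs, and their part in the Abcg3 difference was not tested.

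Over the whole set, Ezh2 KO LICs were higher than WT LICs in 5 members and lower in 3, with a median of 0.27 against -0.05 over all genes. In Kit, Procr and Abcg3 every Ezh2 KO array lay above every WT LIC array, 3 of 8 members against 13.2% of all genes. In the other 5 the arrays overlapped. Against LSK cells 4 of 8 fell in Ezh2 KO LICs (Kit, Trpc6, Sult1a1 and Abcg3), against 1.86% of all genes that fell and 3.47% called in either direction. For 7 of 8, all but Procr, the Ezh2 KO arrays lay below every LSK array, as for 20.5% of all genes, and the median difference was -2.002 against -0.02. The comparisons share arrays, so the differences of WT and Ezh2 KO LICs from LSK cells are given side by side and not correlated.

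**Figure D2:**
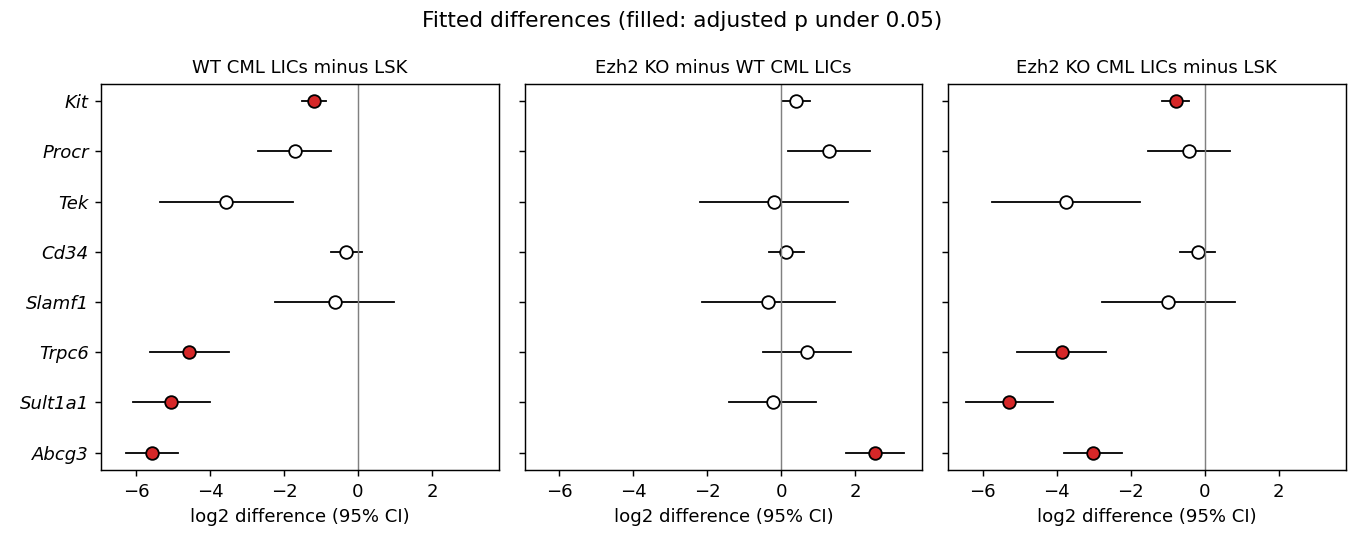
Log2 difference of the 8 members in the 3 comparisons, with 95% intervals from limma; filled symbols passed an adjusted p of 0.05 over 12393 genes. Filled symbols are Kit, Trpc6, Sult1a1 and Abcg3 in both comparisons with LSK cells, and Abcg3 alone between Ezh2 KO and WT LICs; the intervals of Tek and Slamf1 are the widest.

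The members differed among themselves in how well replicates agreed. Residual SDs ran from 0.13 for Kit and 0.21 for Cd34 through 0.42 for Abcg3 to 1.01 for Slamf1 and 1.13 for Tek. Among all genes Kit lay at percentile 11.3 of residual SD and Cd34 at 35.1, while Procr, Sult1a1 and Trpc6 lay at 87.9 to 89.8, Slamf1 at 96.7 and Tek at 97.8. A difference of the size of Kit's, -1.19, could therefore pass the test, and one of -1.71 in Procr did not.

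Single arrays moved several members together. LSK replicate 2 was the highest of its group in 6 of 8 members, against 40.05% of all genes. WT LIC replicate 3, the array with low Xist, was the lowest of its group in 7 of 8, all but Cd34, against 33.7% of all genes. Every WT LIC array of Sult1a1 and Abcg3 lay under background, as did replicates 2 and 3 of Trpc6, so those ranks have no meaning. Ezh2 KO LIC replicate 2 was above replicate 1 in 6 of 8, against 48.5%. What the arrays shared beyond these genes was not tested.

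**Figure D3:**
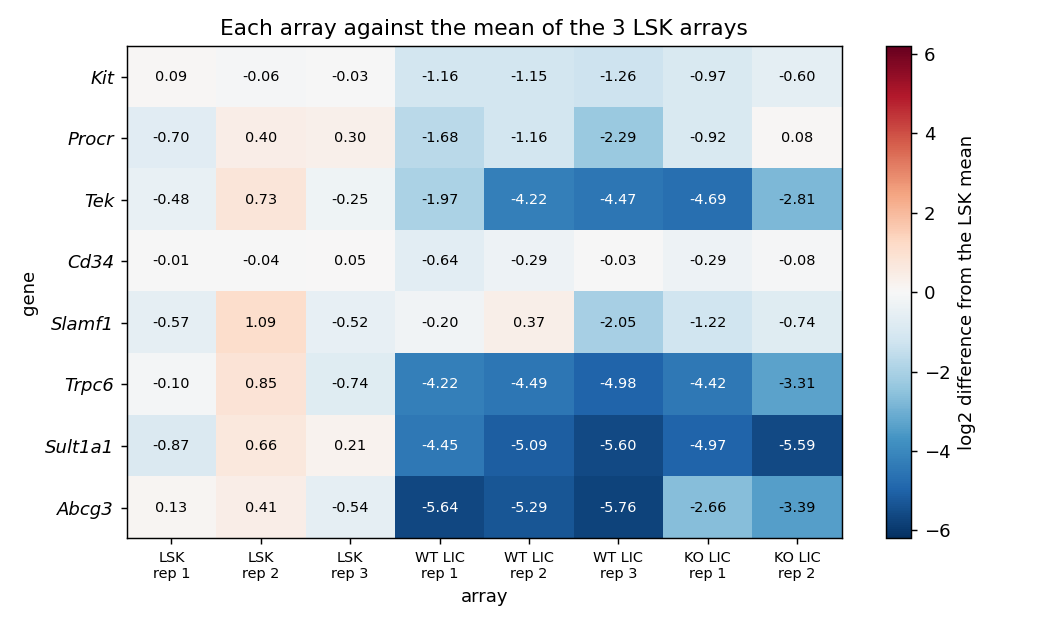
Log2 intensity of each member on each array minus the mean of the 3 LSK arrays for that member; colour gives the difference and the printed number its value. KO LIC stands for Ezh2 KO LIC. All 5 LIC columns lie far below 0 in the rows of Trpc6, Sult1a1 and Abcg3, and the Ezh2 KO columns differ most from the WT LIC columns in Abcg3 and Procr.

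Kit and Abcg3 had a second, dimmer probe set and Slamf1 had 3 in all; the other 5 members had 1 each. Kit's dimmer set gave -1.79 for WT LICs against LSK cells (limma's adjusted p over all probe sets that name 1 gene = 0.0148), 0.50 between the LICs and -1.29 for Ezh2 KO LICs against LSK cells (adjusted p = 0.0525). Abcg3's gave -3.75 (adjusted p = 0.00129), 1.67 (0.0901) and -2.08 (0.0192), the same directions as the brighter set, with the difference between the LICs outside the threshold. The 3 sets of Slamf1 disagreed in sign for WT LICs against LSK cells, at -0.63, -0.94 and 0.44, and gave -0.35, -0.44 and -0.47 between the LICs, all uncalled.

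**Figure D4:**
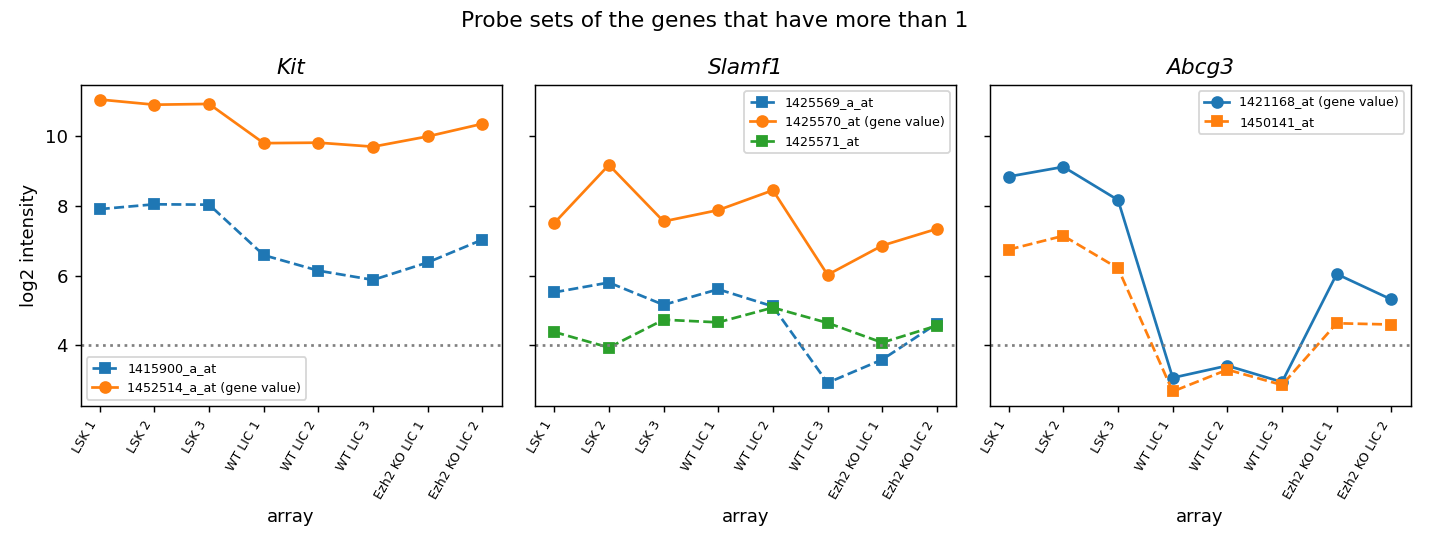
Log2 intensity of every probe set of Kit, Slamf1 and Abcg3 on the 8 arrays; circles and solid lines are the probe set that stands for the gene and squares with dashed lines the others, and the dotted line is the background level of 4.01. Both sets of Kit and both of Abcg3 step down from LSK cells to LICs, while the 2 dimmer sets of Slamf1 reach no higher than 5.80.

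The other genes of the stem cell programme were read from a list of 38 measured of 44 listed, of which 3 were under background on every array. In WT LICs 6 fell and 1 rose, and 31 did not pass, while 2.15% of all genes fell and 3.42% changed in either direction. The median difference was -0.58, against 0.02 over all genes. Pdzk1ip1, a small membrane protein, fell by 3.49 (adjusted p = 0.000149), from 9.43 ± 0.23 (n = 3) to 5.94 ± 0.15 (n = 3). Cavin2, a caveolar coat protein also found in platelets and listed among the megakaryocyte markers, was at least 27.8-fold lower (adjusted p = 0.00146). Hlf, a bZIP transcription factor of stem cells, fell by 2.57 (adjusted p = 0.0124), from 10.77 ± 0.12 to 8.21 ± 0.65. These 3 calls stood in all 20 alternatives.

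Eng, a co-receptor for TGF-beta family ligands, fell by 0.96 (adjusted p = 0.0203), a call lost in 6 alternatives, with adjusted p of 0.0545 to 0.0700 when any 1 LSK array or WT LIC replicate 1 or 2 was left out. The gene that rose, Ifitm1, an interferon-induced membrane protein chosen for naming after its values were seen, differed by 0.72 (adjusted p = 0.0385). In Ezh2 KO LICs 4 of the 38 were called lower and 1 higher than in LSK cells, with a median of -0.58 against -0.02 over all genes. Over all genes 1.86% fell and 3.47% were called in either direction. Pdzk1ip1 fell by 3.26 (adjusted p = 0.000424) and Cavin2 was at least 28.7-fold lower (adjusted p = 0.00255).

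Bmi1, a subunit of Polycomb repressive complex 1 needed for stem cell self-renewal, was the 1 of the 38 called between the LICs. Over all genes 0.637% were called there. Bmi1 was 1.30 higher in Ezh2 KO LICs (adjusted p = 0.0193), at 11.61 ± 0.13 (n = 2) against 10.31 ± 0.17 (n = 3), and 1.06 higher than in LSK cells (adjusted p = 0.0198). The first call was lost without WT LIC replicate 1 (adjusted p = 0.0706), Ezh2 KO LIC replicate 1 (0.0594) or 2 (0.118), and the second when any 1 LSK or Ezh2 KO array was left out (0.0508 to 0.111).

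Of 26 genes of Kit ligand and signalling, 1 was called in WT LICs against LSK cells, 1 between the LICs and none in Ezh2 KO LICs against LSK cells, where 3.42%, 0.637% and 3.47% of all genes were called. The 1 was Grb10 each time, an adaptor that binds receptor tyrosine kinases. It was 11.41, 11.36 and 11.25 in LSK cells, 10.12, 10.56 and 9.72 in WT LICs and 12.20 and 12.45 in Ezh2 KO LICs, 3 separate levels with Ezh2 KO LICs the highest. Grb10 fell by 1.21 in WT LICs (adjusted p = 0.0334) and was 2.19 higher in Ezh2 KO than in WT LICs (SE 0.25, adjusted p = 0.0144).

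Neither Grb10 call stood throughout. The first was lost in 8 alternatives, with adjusted p of 0.0877 to 0.104 when any 1 LSK array or WT LIC replicate 1 was left out. It was also lost with only the 2 groups compared in the fit (0.0544). The second was lost without WT LIC replicate 1 (0.0584), Ezh2 KO LIC replicate 1 (0.0521) or 2 (0.0915). With the mean of its probe sets the 2 differences were -0.66 and 1.01, neither called. Kitl, the ligand, was under background on every array. Calls in the lists below compare with 3.42% of all genes in WT LICs and 3.47% in Ezh2 KO LICs, each against LSK cells. Between the LICs that share was 0.637%.

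In the protein C pathway, Thbd is thrombomodulin, which with thrombin activates the protein C that Procr binds. Thbd was 7.95, 8.26 and 8.42 in LSK cells, 6.39, 5.37 and 6.21 in WT LICs and 9.34 and 8.72 in Ezh2 KO LICs, again 3 separate levels with WT LICs the lowest. It fell by 2.22 in WT LICs (SE 0.31, adjusted p = 0.0137), a call that stood in all 20 alternatives. It was 3.04 higher in Ezh2 KO than in WT LICs (SE 0.34, adjusted p = 0.0144), lost without Ezh2 KO LIC replicate 1 (2.73, adjusted p = 0.0696) and in the fit of the 2 LIC groups alone (0.0760).

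Of the 7 genes of that pathway Thbd was the 1 called in each of these 2 comparisons. In Ezh2 KO LICs against LSK cells the 1 called was F2r, a thrombin receptor, 0.97 higher (adjusted p = 0.0273). F2r lost the call in 8 alternatives, with adjusted p of 0.0504 to 0.139 when any 1 LSK array, either Ezh2 KO array or WT LIC replicate 1 was left out.

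Around Tek, the angiopoietin receptor, 10 genes were measured. Tie1, its partner receptor, fell by 1.81 in WT LICs (adjusted p = 0.0400), from 8.85 ± 0.35 (n = 3) to 7.04 ± 0.69 (n = 3), and fell by 2.30 in Ezh2 KO LICs (adjusted p = 0.0285). The first call was lost in 10 of 20 alternatives, with adjusted p of 0.0682 to 0.110 without any 1 LSK array or WT LIC replicate 1 or 3. With only the 2 groups compared in the fit it was 0.0643. The second was lost in 6, with adjusted p of 0.0623 to 0.143 when any 1 LSK or Ezh2 KO array was left out. Angpt1, a ligand of Tek, was 1.21 lower in Ezh2 KO LICs than in LSK cells (adjusted p = 0.0483), which did not stand in 14 of 20 alternatives, including each fit that left out 1 array (0.0545 to 0.213). None of the 10 was called between the LICs.

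Tek, Tie1 and Procr are also endothelial genes. Summed intensities of 12 endothelial markers were 1710 to 2100 in LSK cells, 668 to 1100 in WT LICs and 954 to 1220 in Ezh2 KO LICs. In WT LICs 3 of the 12 fell, against 2.15% of all genes. Those 3 were Emcn, Tie1 and Robo4, of which Tie1 and Robo4 are also on the list of stem cell genes. Kdr, Cldn5, Stab2 and Sox17 stayed at or under background on every LSK and WT LIC array, as did Cdh5 and Flt1 on the LSK arrays. The part of endothelial transcripts in the differences of Tek, Tie1 and Procr was not tested.

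In the SLAM family, the genome neighbour of Slamf1 rose. Cd48, whose absence helps define stem cells, was 11.06, 11.09 and 11.22 in LSK cells, 12.13, 12.32 and 12.14 in WT LICs and 12.02 and 11.84 in Ezh2 KO LICs, so all LIC arrays lay above all LSK arrays. It rose by 1.07 in WT LICs (SE 0.13, adjusted p = 0.00948), in all 20 alternatives. The rise of 0.81 in Ezh2 KO LICs (adjusted p = 0.0344) was lost in 9, with adjusted p of 0.0557 to 0.160 when any 1 array other than WT LIC replicate 3 was left out.

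Of the 9 SLAM genes and adaptors measured, Slamf6, a receptor of lymphocytes, was the 1 called between the LICs, at 6.31 ± 0.58 (n = 2) in Ezh2 KO against 4.09 ± 0.30 (n = 3) in WT LICs, 2.23 higher (adjusted p = 0.0288). That call was lost in 8 alternatives, with adjusted p of 0.0569 and 0.0614 when LSK replicate 1 or 3 was left out, 0.0693 and 0.0963 without WT LIC replicate 1 or 2, and 0.102 without Ezh2 KO LIC replicate 1. Slamf6 was also 2.15 higher than in LSK cells (adjusted p = 0.0179), lost without Ezh2 KO LIC replicate 1 (0.0793). With the mean of its probe sets the 2 differences were 1.29 (adjusted p = 0.0679) and 1.03 (0.0502), neither called. B cell markers were higher in the same arrays.

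The sialomucins went both ways. Podxl (podocalyxin), the closest relative of Cd34, was 6.49, 7.44 and 8.15 in LSK cells, 11.26, 11.76 and 10.76 in WT LICs and 11.18 and 11.68 in Ezh2 KO LICs, so LICs lay far above LSK cells. It rose by 3.90 in WT LICs (SE 0.44, adjusted p = 0.00658), in all 20 alternatives, and by 4.07 in Ezh2 KO LICs (adjusted p = 0.00983), lost without Ezh2 KO LIC replicate 2 (3.82, adjusted p = 0.0631). With the mean of its probe sets the first rise was 2.33. Emcn (endomucin), present on stem cells and endothelium, fell by 3.02 in WT LICs (adjusted p = 0.0128), from 8.74 ± 0.55 to 5.72 ± 0.71. None of the 7 measured genes of this list was called between the LICs. Prom1 and Crkl are among the 7 and are not sialomucins.

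**Figure D5:**
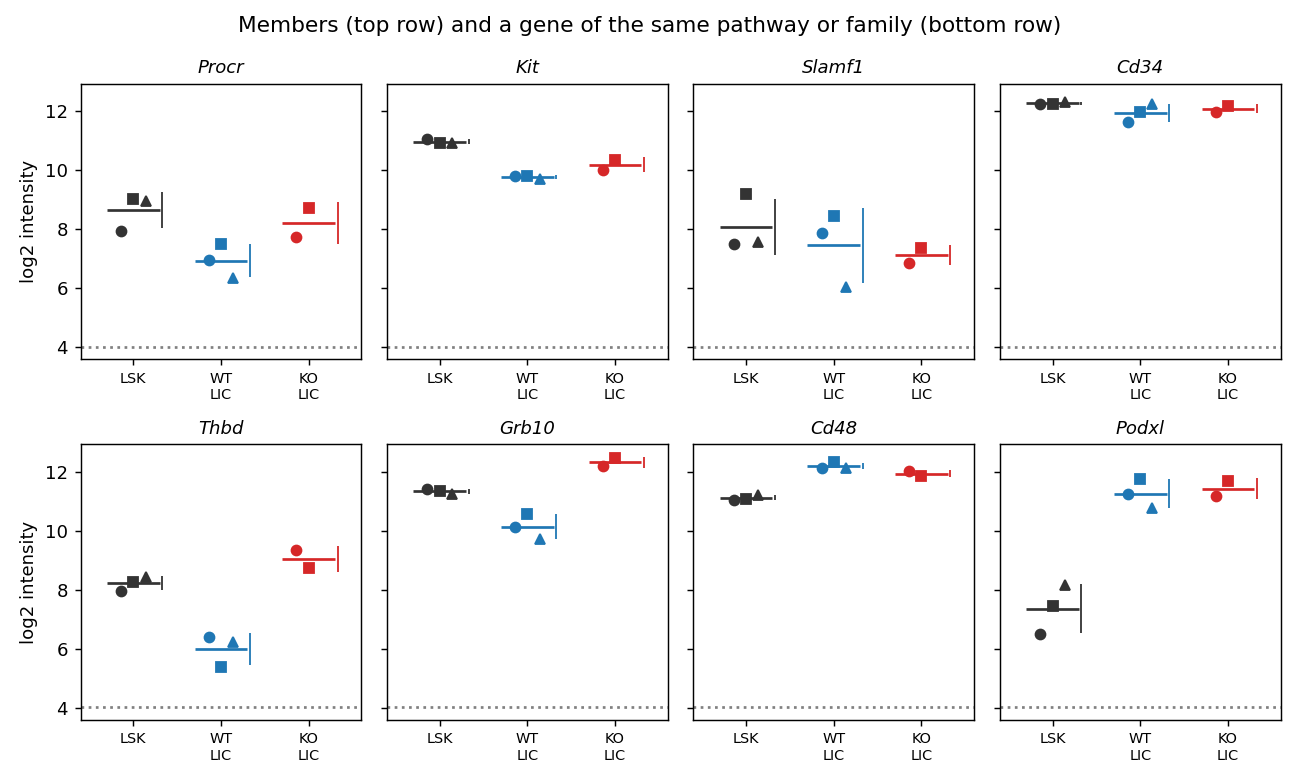
Log2 intensity of 4 members beside a related gene on each array: Procr and Thbd, Kit and Grb10, Slamf1 and Cd48, Cd34 and Podxl. Symbols mark replicates, bars group means and thin lines ± 1 SD; Thbd and Grb10 are lowest in WT LICs and highest in Ezh2 KO LICs, and Cd48 and Podxl are higher in both LIC groups than in LSK cells.

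Among 13 genes of multipotent progenitors, the cells that share the LSK gate, 2 fell and 1 rose in WT LICs, with a median of -0.99. Over all genes 2.15% fell, 3.42% changed in either direction and the median was 0.02. Cd27, a receptor of the TNF receptor family, fell by 0.99 (adjusted p = 0.0326) and Lsp1, an actin-binding protein of leukocytes, by 1.01 (adjusted p = 0.0276), and the riser was Cd48. The call of Cd27 was lost when any 1 LSK array or WT LIC replicate 1 or 2 was left out (adjusted p 0.0733 to 0.107). It was also lost with only the 2 groups compared in the fit (0.0531). That of Lsp1 was lost when any 1 of LSK replicates 2 and 3 and WT LIC replicates 1 and 2 was left out (0.0663 to 0.0921). In Ezh2 KO LICs Cd27 fell by 1.61 against LSK cells (adjusted p = 0.0105), lost without Ezh2 KO LIC replicate 2 (0.0640). None of the 13 was called between the LICs, where their median was 0.52, against 0.637% called and a median of -0.05 over all genes.

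The relatives of the 3 identity genes gave no calls. None of 5 TRPC channels, 11 cytosolic sulfotransferases and their cofactor enzymes, or 8 ABCG and related drug transporters was called in any comparison, although 1, 7 and 1 of them in that order were under background on every array, where a change is not measured. Trpc4, Trpc7 and Abcg8 were at about background, with no array above 4.57. Over all genes 3.42% were called in WT LICs against LSK cells, 0.637% between the LICs and 3.47% in Ezh2 KO LICs against LSK cells. With shares this low, no calls in lists this short do not show that these relatives were unchanged. Abcg2, the efflux pump, averaged 10.37 in LSK cells, 10.08 in WT LICs and 10.67 in Ezh2 KO LICs. Of 10 measured genes of the Ly6 family, to which Ly6a belongs, 5 were under background throughout. Ly6d, a marker of early B lineage commitment, was the 1 called: 3.48 higher in Ezh2 KO than in WT LICs (adjusted p = 0.0256) and 2.20 higher than in LSK cells (adjusted p = 0.0472). These calls were lost in 5 and 11 alternatives, the first without LSK replicate 1 (0.0502), WT LIC replicate 1 (0.0598) or 2 (0.0805), or Ezh2 KO LIC replicate 1 (0.101) or 2 (0.132). The second had an adjusted p of 0.0537 to 0.182 when any 1 array other than LSK replicate 3 was left out.

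Over the 8 arrays, the gene most like each member other than Cd34 is given, sought among the 6688 genes that were brighter than the median gene in their highest group. Pearson's r is a description here, since all members share the same 8 arrays and 3 groups. Kit was most like Krt18 (a keratin, r = 0.991), Tek most like Art4 (an ADP-ribosyltransferase-family surface protein, r = 0.993) and Abcg3 most like Lst1 (a leukocyte protein, r = 0.994). Procr was nearest to Ammecr1l (0.972), Trpc6 to Hacd4 (a fatty acid dehydratase, 0.988) and Slamf1 to Cr1l (a complement regulator, 0.926).

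Sult1a1 was most like the antibody light chain segment Igkv8-30 (r = 0.980). That segment measured 10.72, 10.61 and 10.96 in LSK cells, 3.07, 3.81 and 2.72 in WT LICs and 3.39 and 2.35 in Ezh2 KO LICs, so it too was bright on LSK arrays and under background on LIC arrays. The antibody chain gene Jchain was 11.19, 10.40 and 11.09 in LSK cells, 5.09, 4.83 and 5.44 in WT LICs and 3.76 and 4.70 in Ezh2 KO LICs. It separated the same groups, and its part in the Sult1a1 difference was not tested.

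The nearest measured gene on each side of the members was mostly uncalled, and those named here were chosen after their values were seen. Of these 16 neighbours, Cd48 beside Slamf1 was called in both comparisons with LSK cells, as given above, and Zfp33b beside Abcg3 was 1.11 lower in Ezh2 KO LICs than in LSK cells (adjusted p = 0.0354). Gbp8 on the other side of Abcg3 differed by -3.23 in WT LICs (adjusted p = 0.0728). The neighbours of Kit, Pdgfra and Kdr, which encode related receptor kinases, were under background in all 3 group means, so no difference is given.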

How the data were processed

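The deposited series table holds 22690 probe sets on 8 arrays, and its values were linear intensities of 1.94 to 19343.1. RMA is named in the submitters' processing notes, without a version. Sorted by size, the log2 values of the deposited arrays agreed to an SD of 0.08 or less and the array medians lay between 6.42 and 6.57. Per the labels' protocols, sorted cells went straight into lysis buffer and total RNA was amplified by single-primer isothermal amplification before biotin labelling. The sources used here do not give the background correction.

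Log2 of each intensity was taken with no pseudocount. The design had assumed a log2 table, and its test was kept. Control probe sets (64) and probe sets that name several genes (691) or are not listed in the annotation (1555) were left out. Of 20380 probe sets with 1 symbol, 20351 matched RefSeq by gene number. A gene was its brightest probe set by mean over the arrays, with no filter on dim genes. The 3 groups were fitted together with group as the only term (limma 3.58.1 in R 4.3.3, lmFit and eBayes, 5 residual degrees of freedom), after a check on simulated data. Figures were drawn with matplotlib 3.10.9. Exact permutation tests were not used, since arrays this few cannot reach the threshold.

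The members, related lists and naming rule (the members, Ezh2, the gene most like each member, and up to 4 called genes of a list by smallest p) were chosen with earlier results of these data known. The gene most like Cd34 is not reported here. Alternatives numbered 20, namely 12 changes of processing and 8 fits leaving out 1 array each. For WT LICs against LSK cells, leaving out either Ezh2 KO array gave the same fit as fitting those 2 groups alone. Those alternatives are therefore not separate checks. The labels call replicates biological repeats, without saying from how many animals.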

Additional observations from a re-analysis of the deposited data

How the results depend on the processing

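Over 20 alternatives, the falls of Kit, Trpc6, Sult1a1 and Abcg3 in WT LICs, and of Sult1a1 and Abcg3 in Ezh2 KO LICs, against LSK cells stayed called in all. The number of arrays limits the precision of all results. Genes called in WT LICs against LSK cells numbered 424, and 917 with array weights, 252 with the replicate block, and 176 to 643 with 1 array left out. Between Ezh2 KO and WT LICs the 79 became 119 with array weights, 35 with only those groups fitted, 36 with the replicate block, and 25 to 146 with 1 array left out. For Ezh2 KO LICs against LSK cells the 430 became 147 with the replicate block and 118 to 643 with 1 array left out. Members called between the LICs (1) were 0 with only the 2 groups fitted, with the replicate block and with a pseudocount of 16, and 0 to 1 with 1 array left out. Members called in Ezh2 KO LICs against LSK cells (4) were 2 to 4 with 1 array left out, the 2 being without Ezh2 KO LIC replicate 1, and in WT LICs 4 to 5. The highest of each range of genes called (643, 146 and 643) was without WT LIC replicate 3, the array with low Xist; between the LICs 95 of those were higher and 51 lower, 65.1% higher, against 73 and 6 with all arrays. The cause was not tested.

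Uncalled differences that changed sign are given with their range over the fits that left out 1 array. In WT LICs against LSK cells, Slamf1 was 0.062 with array weights and ranged from -1.13 (without WT LIC replicate 2) to 0.085 (without WT LIC replicate 3). Between Ezh2 KO and WT LICs, Cd34 ranged from -0.025 (without WT LIC replicate 1) to 0.28, Slamf1 from -1.06 to 0.15 (without WT LIC replicate 2), Tek from -1.14 to 0.75 (without Ezh2 KO LIC replicate 1; 0.60 without WT LIC replicate 1) and Sult1a1 from -0.54 to 0.079 (without Ezh2 KO LIC replicate 2; 0.066 without WT LIC replicate 1); both LIC groups of Sult1a1 were under background, so its sign there has no meaning. In Ezh2 KO LICs against LSK cells, Procr ranged from -0.92 to 0.080 (without Ezh2 KO LIC replicate 1). With median centring, higher genes made up 54.1% rather than 37.0% of the calls in WT LICs, and 59.7% rather than 46.5% in Ezh2 KO LICs, against LSK cells, and the median of all genes in WT LICs was 0.13 rather than 0.02.

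Whether repeat numbers pair the samples was not settled. Same-numbered WT LIC and LSK arrays had deviations from their group means correlating at -0.05, -0.02 and -0.02, and Ezh2 KO and WT LIC arrays at 0.14 and 0.02. Deviations of the 2 Ezh2 KO arrays mirror each other, so this check cannot exclude pairing. With the replicate block the Abcg3 difference between the LICs was 2.35 (adjusted p = 0.0770) and that of Kit in Ezh2 KO LICs against LSK cells -0.81 (0.123), both uncalled. Leaving out genes of the X and Y chromosomes was chosen after seeing the data and changed no call of a member.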
